A study of Rattus norvegicus with 12 samples.

Results

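Myc and 36 genes that make or assist nucleolar ribosome production were followed through stretch of heart muscle cells. A gene was taken when its symbol was the gene name that the scanner output gives for a probe. By this rule 35 of the 37 genes had a probe, with 43 probes in all, and 35 of 35 passed the filter on dim probes, in a table of 14376 genes. Polr1d and Rrp12 had no probe under those symbols. The 37 genes were Myc itself, 8 of RNA polymerase I and its factors, 9 of small subunit assembly, 9 of large subunit assembly, 5 of small nucleolar ribonucleoproteins (snoRNPs) and 5 multifunctional nucleolar proteins.

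The study measured total RNA of neonatal rat ventricular cardiomyocytes on Agilent 60-mer arrays with a single dye (Cy3). There were 4 groups of 3 arrays: cells left unstretched, and cells stretched along both axes in pulses, with 20% elongation, for 2, 6 or 24 h. All cells, controls included, sat on collagen-coated silicone membranes and had been cultured for 24 h with 10% serum before stretch; no genetic change or drug was used. The labels call the 3 samples of a group biological replicates but do not say whether they came from separate cell isolations, so p-values measure only the spread between these samples. The same 3 controls served every stretch time and no culture time is named for them, so stretch duration and time in culture cannot be told apart.

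Ribosomes are built in the nucleolus. RNA polymerase I copies ribosomal DNA into a long precursor RNA, snoRNPs guide the chemical modification of that RNA, and assembly factors fold it, cut it and load ribosomal proteins until small and large subunits leave for the cytoplasm. The transcription factor Myc is known to bind the sequence CACGTG, the E-box, with its partner Max, and to raise transcription of many of these genes; in heart muscle, growth of the cell without division, called hypertrophy, goes with more ribosome production.

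Because these genes are commonly described as Myc targets, their promoters were searched for CACGTG. The windows ran from 250 bases before to 50 bases after the annotated start of the gene in the RefSeq annotation of rat assembly GRCr8. A window was held for 34 of the 37 genes; Myc, Bop1 and Wdr43 had none. The motif reads the same on both strands, so 1 search covered both, and no other motif was searched; a match is one of letters only, and binding was not measured. It was present in 10 of 34 windows (29.4%), against 7.02% of 21851 windows of protein-coding genes and 8.70% of the 15490 of those whose G and C content lay in the range of the 34. The RNA polymerase I group had it in 0 of 8 windows, small subunit assembly in 3 of 8, large subunit assembly in 3 of 8, the snoRNP group in 2 of 5 and the multifunctional group in 2 of 5. The first base of the motif lay at -184 from the start in Dkc1, 21 in Fbl, -25 in Gnl3, 38 in Nop2, -58 in Npm3, -50 in Pes1, 3 in Rrp12, -127 in Utp20 and -160 in Wdr75, and Mybbp1a had it at -156 and -1.

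4 windows are shown 5′ to 3′ on the gene's strand, in lower case with CACGTG in capitals. Gnl3 had the largest change of all these genes after Myc. Pes1 and Mybbp1a show 1 and 2 copies of the motif in the window. Polr1b, the RNA polymerase I gene with the largest change at 24 h on the scale used here, has none in its window. The 4 windows lie at chr16:6219733-6220032 (minus strand, Gnl3), chr14:83074096-83074395 (plus strand, Pes1), chr10:57555208-57555507 (plus strand, Mybbp1a) and chr3:136786880-136787179 (plus strand, Polr1b) of GRCr8.
Gnl3: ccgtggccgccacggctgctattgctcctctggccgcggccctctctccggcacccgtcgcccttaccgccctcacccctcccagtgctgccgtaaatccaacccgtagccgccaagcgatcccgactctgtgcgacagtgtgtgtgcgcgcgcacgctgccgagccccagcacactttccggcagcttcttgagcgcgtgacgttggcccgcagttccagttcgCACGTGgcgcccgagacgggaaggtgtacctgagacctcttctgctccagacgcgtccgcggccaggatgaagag
Pes1: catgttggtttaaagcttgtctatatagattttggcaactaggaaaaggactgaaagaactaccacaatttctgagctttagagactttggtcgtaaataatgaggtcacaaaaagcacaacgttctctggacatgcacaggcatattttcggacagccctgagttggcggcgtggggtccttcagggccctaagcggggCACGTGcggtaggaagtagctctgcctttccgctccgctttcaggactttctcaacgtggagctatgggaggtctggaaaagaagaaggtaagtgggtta
Mybbp1a: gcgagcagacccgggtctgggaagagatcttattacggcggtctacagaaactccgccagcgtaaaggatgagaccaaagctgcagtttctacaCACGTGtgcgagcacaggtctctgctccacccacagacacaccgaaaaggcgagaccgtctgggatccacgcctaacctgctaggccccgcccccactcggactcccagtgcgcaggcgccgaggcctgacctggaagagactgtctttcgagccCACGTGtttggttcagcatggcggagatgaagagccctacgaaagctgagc
Polr1b: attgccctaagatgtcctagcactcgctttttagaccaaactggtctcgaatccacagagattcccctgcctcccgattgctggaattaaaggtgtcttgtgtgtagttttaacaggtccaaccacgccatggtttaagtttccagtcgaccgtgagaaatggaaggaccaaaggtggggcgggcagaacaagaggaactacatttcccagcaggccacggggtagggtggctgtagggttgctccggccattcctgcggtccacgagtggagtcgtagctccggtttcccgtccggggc

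Signals are given as log2 of the background-subtracted probe intensity minus the array's 75th percentile, so a level of 0 equals that percentile; levels of different probes are not compared. A change is a difference of group means on this scale with the standard error of the model and n = 3 arrays per group. A gene was called when limma's moderated test, adjusted by the Benjamini-Hochberg method over 14376 genes, gave an adjusted p below 0.05.
The 12 arrays had 75th percentiles of 1142 to 1671 intensity units; of the 58717 spots of an array 64.7% to 70.6% passed the scanner software's test against background, and 0 were saturated. All 10 cardiomyocyte markers were detected, with a summed level of 948 to 1018 times the array's 75th percentile in controls. Controls, the 2 h arrays and 2 of the 6 h arrays lay on one slide, and the third 6 h array and all 24 h arrays on another.

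More of the 35 genes were called higher, and with larger changes, the longer the cells had been stretched. At 2 h 3 genes were called, all higher (Myc, Rrp9 and Utp15), where 9.2% of all genes were called, 3.1% higher and 6.1% lower. At 6 h 19 of 35 were called, all higher, against 16.8% of all genes called, 5.06% higher and 11.7% lower. At 24 h 27 of 35 were higher and 1 lower (Rrn3), against 47.9% of all genes called, 16.2% higher and 31.7% lower. At an unadjusted p below 0.05, limma's test had 13, 24 and 30 of them higher and 0, 0 and 1 lower. The median change over the 35 genes was 0.08, 0.20 and 0.38 at 2, 6 and 24 h, beside -0.01, -0.05 and -0.08 over all genes. The group means stood in the order control, 2 h, 6 h, 24 h for 19 of the 35 genes, as they did for 8.08% of all genes.
All 3 stretched arrays lay above all 3 controls for 14 of 35 genes at 2 h, 24 at 6 h and 28 at 24 h; over all genes the shares were 12.4%, 13.3% and 20.4%. Tcof1 at 2 h, and 0 genes at 6 h and 24 h, had all 3 stretched arrays below the controls, where the shares over all genes were 16.2%, 26.1% and 38.5%.
The 2 h count was 1 without control replicate 1 or without 2 h replicate 1. The 6 h count was 12 without control replicate 1, 12 without control replicate 2, 11 without control replicate 3, 10 without 6 h replicate 1 and 9 without 6 h replicate 3. On the arrays of the first slide alone 10 genes were called at 6 h.

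**Figure D1:**
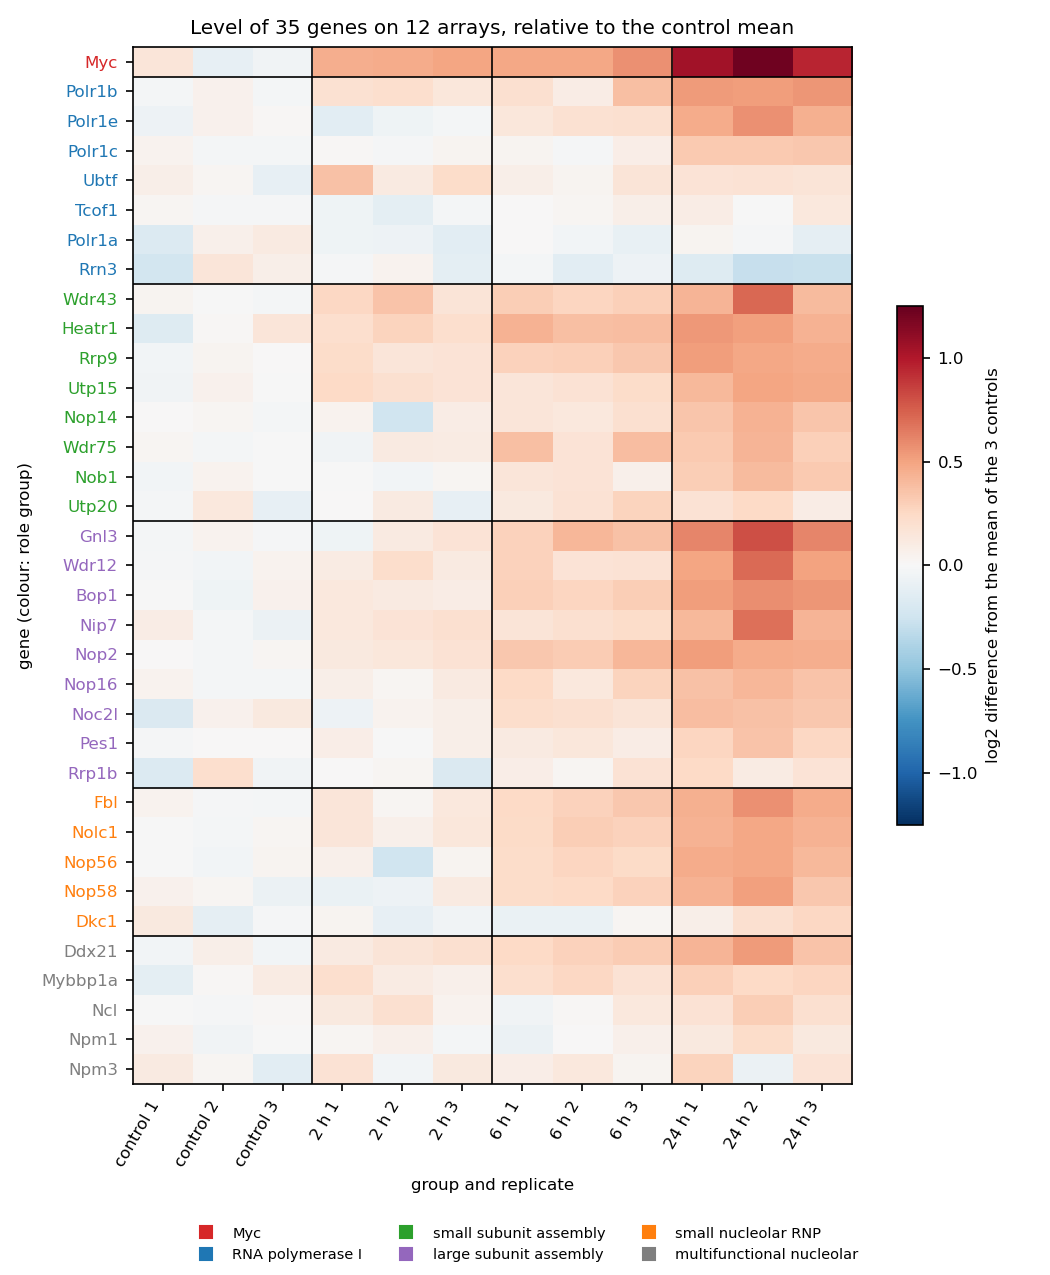
Level of each of the 35 genes (rows, coloured by role) on each of the 12 arrays (columns), as the log2 difference from the mean of the 3 controls; red is above and blue below the controls. Myc is the darkest row at 24 h, most assembly and snoRNP genes darken from 2 h to 24 h, and Rrn3 turns blue at 24 h.

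Later times were also compared with earlier ones. From 2 h to 6 h 9 genes rose and 0 fell (10.5% of all genes called, 3.68% higher and 6.8% lower): Polr1e, Wdr75, Gnl3, Bop1, Nop2, Nop56, Nop58, Fbl and Nolc1. From 6 h to 24 h 18 rose and 0 fell (25% of all genes called, 9.57% higher and 15.5% lower), and from 2 h to 24 h 26 rose and 0 fell (48.2% called, 18% higher and 30.2% lower). The median changes were 0.13, 0.18 and 0.31, against -0.04, -0.02 and -0.05 over all genes. The moderated F test over the 4 groups called 26 of 35 genes, where it called 52.8% of all genes.
The 6 h against 2 h count was 1, 4 and 5 without 2 h replicate 1, 2 and 3 in turn, and 0, 2 and 0 without 6 h replicate 1, 2 and 3. With the slide as a block it was 0, and the 24 h against 6 h count was 6. Spike-in scaling sets the arrays by the labelled control RNAs added to each sample. Under it 0 of the 18 calls from 6 h to 24 h held, and 34 genes were already called higher than control at 6 h. That scaling adds 0.49 to the 6 h change of every gene. The 6 h median was then 0.69 over the 35 genes and 0.44 over all genes, so many genes outside the set were called higher too.

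Myc, a transcription factor that drives growth and ribosome production, was the gene of the set with the largest change at each time. Its level was 0.88, 0.62 and 0.68 on the 3 control arrays, 1.18, 1.19 and 1.22 after 2 h, 1.21, 1.21 and 1.30 after 6 h, and 1.77, 1.94 and 1.68 after 24 h. Every stretched array lay above every control, and the 24 h arrays lay above those of 2 h and 6 h. The changes from control were 0.47 ± 0.08 at 2 h (limma, adjusted p = 0.0064), 0.51 ± 0.08 at 6 h (limma, adjusted p = 0.00242) and 1.07 ± 0.08 at 24 h (limma, adjusted p = 3.27e-06), the last a 2.10-fold higher signal. Between 2 h and 6 h the change was 0.04 ± 0.08 and did not pass the test (limma, adjusted p = 0.755), and between 6 h and 24 h it was 0.56 ± 0.08 (limma, adjusted p = 5.83e-04). With the slide as a block the 3 changes from control were 0.47, 0.48 and 0.98, and each was called; under spike-in scaling the 2 h change was no longer called (limma, adjusted p = 0.0686). The Myc probe was read on 10 spots per array and lies at chr7:98957687-98957746 of rn4, the genome build of the array files. The probes of the other genes given array by array lie at chr16:6444525-6444584 (Gnl3), chr9:58623047-58623106 (Wdr12), chr7:114500906-114501053 (Bop1), chr3:116730202-116730261 (Polr1b), chr5:61598024-61598083 (Polr1e), chr6:23951482-23951541 (Wdr43), chr17:68618364-68618423 (Heatr1), chr8:111630684-111630847 (Rrp9), chr19:36917207-36917266 (Nip7), chr1:83280992-83281051 (Fbl) and chr20:29838773-29838832 (Ddx21) of rn4; which exon each lies in was not analysed here.

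The RNA polymerase I group rose in part. Of its 7 measured genes 0 were called at 2 h, 2 were higher at 6 h (Polr1b and Polr1e), and at 24 h 3 were higher (those and Polr1c) and 1 lower (Rrn3); the group's median change was -0.03, 0.04 and 0.17. The calls were 0%, 28.6% and 57.1% of the group at 2, 6 and 24 h, beside 9.2%, 16.8% and 47.9% of all genes. Higher calls at 24 h were 42.9% of the group and 16.2% of all genes. Over the 27 other genes apart from Myc, 2, 16 and 23 were higher at the same times, with medians of 0.09, 0.22 and 0.43. At 2 h, 2 of the 7 were higher in limma's test at an unadjusted p below 0.05. A difference between these groups of genes was not tested.
The 2 calls at 6 h became 0 in fits without control replicate 1, 2 or 3, 6 h replicate 1 or 3, or 24 h replicate 1 or 3, and 1 without 6 h replicate 2. Among the other 27 genes the 6 h count was 10 without control replicate 3, 9 without 6 h replicate 1 and 8 without 6 h replicate 3, and the 2 h count was 0 without control replicate 1 or 2 h replicate 1 and 1 without control replicate 3 or 2 h replicate 3.

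Polr1b encodes the second largest subunit of RNA polymerase I. Its level was -2.69, -2.61 and -2.69 in controls, -2.48, -2.45 and -2.52 at 2 h, -2.46, -2.57 and -2.29 at 6 h, and -2.14, -2.15 and -2.11 at 24 h. The stretched arrays all lay above the controls, and those of 24 h stood clear of the rest. The changes were 0.18 ± 0.06 (limma, adjusted p = 0.112), 0.22 ± 0.06 (limma, adjusted p = 0.0395) and 0.53 ± 0.06 (limma, adjusted p = 9.38e-05). With the slide as a block its 24 h change was 0.31 (limma, adjusted p = 0.0417), below the 0.46 of Polr1e, and its rise from 2 h to 24 h was no longer called (0.13; limma, adjusted p = 0.368).
Polr1e, a subunit of the polymerase's peripheral heterodimer, stood at -2.74, -2.63 and -2.67 in controls, -2.81, -2.73 and -2.70 at 2 h, -2.54, -2.49 and -2.48 at 6 h, and -2.21, -2.11 and -2.23 at 24 h. The 2 h arrays overlapped the controls, and the 6 h and 24 h arrays lay above them. Its change was -0.07 ± 0.05 at 2 h (0.11 under spike-in scaling) and was 0.17 ± 0.05 at 6 h (limma, adjusted p = 0.0425) and 0.49 ± 0.05 at 24 h (limma, adjusted p = 3.42e-05). A further Polr1e probe gave 0.31 at 6 h and 0.48 at 24 h.
Polr1c, a subunit shared with RNA polymerase III, lay at 3.40, 3.34 and 3.34 in controls, between 3.34 and 3.44 on the 6 arrays of 2 h and 6 h, and at 3.69, 3.69 and 3.70 at 24 h. It rose at the last time alone among the 3 comparisons with the control, by 0.33 ± 0.04 (limma, adjusted p = 1.09e-04).
Rrn3, the factor that brings the polymerase to its promoter, lay at -3.22, -2.84 and -2.92 in controls and at -3.16, -3.28 and -3.28 at 24 h. The first control overlapped the 24 h arrays; the other controls lay above them. It fell by 0.24 ± 0.09 (limma, adjusted p = 0.0446), the call held in 8 of 24 alternative processings (each array left out in turn among them), and under spike-in scaling the change was 0.18.
Polr1a, the largest catalytic subunit, had changes of -0.08 ± 0.07, -0.04 ± 0.07 and -0.03 ± 0.07 and did not pass the test at any time, while under spike-in scaling they were 0.09, 0.45 and 0.40. Tcof1, the nucleolar phosphoprotein treacle, had -0.07 ± 0.05 (0.11 under spike-in scaling), 0.03 ± 0.05 and 0.08 ± 0.05 and did not pass it against control either. From 2 h to 24 h Tcof1 was called higher (0.14, limma, adjusted p = 0.0314), a call that held in 17 of 24 alternatives. Ubtf, which binds and opens ribosomal DNA, had its largest change at 2 h: its level was 1.36, 1.31 and 1.18 in controls and 1.65, 1.40 and 1.51 at 2 h, a change of 0.24 ± 0.07 (limma, adjusted p = 0.0565), and 0.17 ± 0.07 at 24 h (limma, adjusted p = 0.0571). A further Ubtf probe changed by 0.34 ± 0.09 at 2 h, which passed the test when it was adjusted over all probes (limma, adjusted p = 0.0371), and by 0.01 at 6 h and 0.11 at 24 h.
Polr1d, a small subunit that pairs with Polr1c, had a probe only under the older name Rpo1-3 and is therefore outside the counts. That probe read 2.47, 2.44 and 2.37 in controls and 2.69, 2.81 and 2.71 at 24 h, a change of 0.31 ± 0.05 (limma over all probes, adjusted p = 4.41e-04), with 0.02 at 2 h and 0.08 at 6 h. Like Polr1c, it was called only at 24 h among these 3 comparisons.

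**Figure D2:**
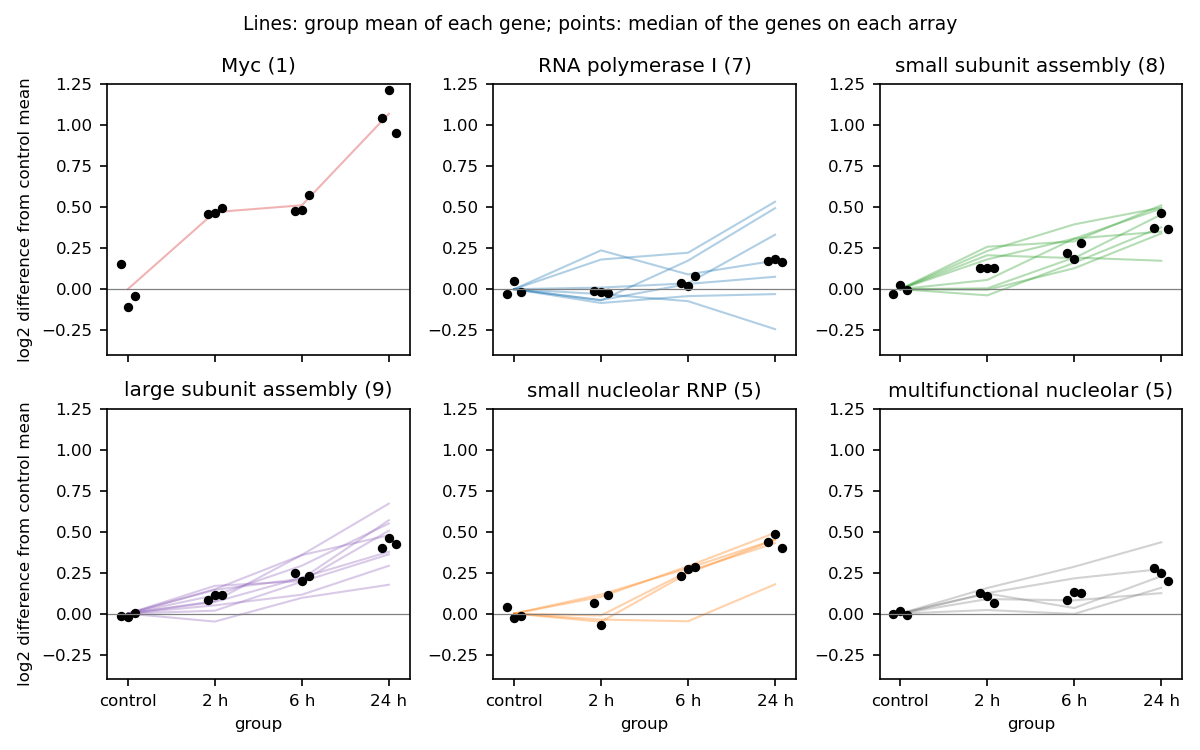
Group mean of each gene (thin lines) and the median of a role group on each array (black points, 3 per group) against group, as log2 difference from the control mean. The medians of the assembly and snoRNP groups climb at 6 h and again at 24 h, while the RNA polymerase I medians stay near 0 until 24 h, where its lines spread from -0.24 to 0.53.

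Small subunit assembly genes included both genes beside Myc that were called at 2 h. Of 8 measured genes 2, 5 and 7 were higher at 2, 6 and 24 h, with medians of 0.12, 0.24 and 0.42.
Rrp9, a protein of the U3 snoRNP that starts cleavage of the precursor, stood at -0.19, -0.12 and -0.15 in controls, 0.08, -0.0044 and 0.02 at 2 h, 0.14, 0.14 and 0.19 at 6 h, and 0.37, 0.34 and 0.31 at 24 h. Its 4 groups did not overlap, each later one lying above the one before. The changes were 0.18 ± 0.04 (limma, adjusted p = 0.0231), 0.31 ± 0.04 (limma, adjusted p = 0.00129) and 0.49 ± 0.04 (limma, adjusted p = 8.3e-06).
Wdr43, a scaffold protein of the early small subunit particle, stood at -0.67, -0.72 and -0.73 in controls, -0.45, -0.35 and -0.55 at 2 h, -0.40, -0.44 and -0.41 at 6 h, and -0.28, 0.01 and -0.32 at 24 h. The stretched arrays all lay above the controls, and the second 24 h array stood highest. Its changes were 0.26 ± 0.08 (limma, adjusted p = 0.0745), 0.29 ± 0.08 (limma, adjusted p = 0.0338) and 0.51 ± 0.08 (limma, adjusted p = 5.16e-04), and with the slide as a block the last was 0.51 and no longer called (limma, adjusted p = 0.0547).
Heatr1, a large scaffold protein of the same particle, stood at -2.19, -2.01 and -1.88 in controls, -1.82, -1.75 and -1.81 at 2 h, -1.59, -1.65 and -1.64 at 6 h, and -1.48, -1.51 and -1.59 at 24 h. The controls spread more widely than any stretched group, yet did not reach it. Its changes were 0.23 ± 0.07 (limma, adjusted p = 0.0642), 0.40 ± 0.07 (limma, adjusted p = 0.0048) and 0.50 ± 0.07 (limma, adjusted p = 2.42e-04).
Utp15, a scaffold protein that also supports transcription of ribosomal DNA, was called at each time, with changes of 0.21, 0.19 and 0.46, but its further probe gave 0.09, -0.13 and 0.01, none of them called, so the gene's probes disagree. Wdr75, of the same early particle, rose by 0.31 ± 0.07 at 6 h and 0.35 ± 0.07 at 24 h. Nop14, a core component of the early particle, and Nob1, the nuclease that makes the last cut on the small subunit RNA, were called at 24 h only among these 3 comparisons, with changes of 0.38 ± 0.08 and 0.34 ± 0.05. Utp20, a very large assembly scaffold, had 0.19 ± 0.08 at 6 h and 0.17 ± 0.08 at 24 h and passed at neither time. With normexp background correction these changes were -0.09 and -0.22. That correction models the background of each array and then adds 50 intensity units to every spot. The part of this offset in the changes of weak probes was not tested.

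Large subunit assembly genes held the 3 largest changes after Myc at 24 h, those of Gnl3, Wdr12 and Bop1. Of 9 measured genes 0, 5 and 8 were higher at 2, 6 and 24 h, with medians of 0.08, 0.21 and 0.48.
Gnl3 encodes nucleostemin, a nucleolar GTPase. It stood at 2.22, 2.29 and 2.23 in controls, 2.19, 2.36 and 2.41 at 2 h, 2.54, 2.66 and 2.62 at 6 h, and 2.85, 3.05 and 2.85 at 24 h. At 2 h its arrays overlapped the controls; at 6 h and 24 h each group lay above every earlier array. The changes were 0.08 ± 0.07 (limma, adjusted p = 0.554), 0.36 ± 0.07 (limma, adjusted p = 0.00818) and 0.67 ± 0.07 (limma, adjusted p = 3.8e-05), the last a 1.59-fold higher signal.
Bop1, Pes1 and Wdr12 encode the PeBoW complex, which is needed to process the RNAs of the large subunit. Bop1 stood at -0.31, -0.36 and -0.25 in controls, -0.18, -0.19 and -0.21 at 2 h, -0.01, -0.04 and 0.00 at 6 h, and 0.21, 0.27 and 0.25 at 24 h. Its 4 groups did not overlap, and the changes were 0.11 ± 0.04 (limma, adjusted p = 0.125), 0.29 ± 0.04 (limma, adjusted p = 0.00162) and 0.55 ± 0.04 (limma, adjusted p = 3.91e-06).
Wdr12 stood at -0.98, -0.996 and -0.92 in controls, -0.86, -0.75 and -0.85 at 2 h, -0.67, -0.79 and -0.79 at 6 h, and -0.47, -0.26 and -0.46 at 24 h. The stretched arrays all lay above the controls, and the 2 h and 6 h arrays overlapped. Its changes were 0.15 ± 0.06 (limma, adjusted p = 0.197), 0.21 ± 0.06 (limma, adjusted p = 0.0468) and 0.57 ± 0.06 (limma, adjusted p = 6.13e-05).
Pes1, the third PeBoW gene, moved least of them: 0.05 ± 0.04 and 0.12 ± 0.04 at 2 h and 6 h, not called, and 0.29 ± 0.04 at 24 h (limma, adjusted p = 3.27e-04).
Nip7, an assembly factor of the large subunit, stood at 1.39, 1.27 and 1.22 in controls, 1.43, 1.47 and 1.50 at 2 h, 1.46, 1.50 and 1.52 at 6 h, and 1.70, 1.99 and 1.72 at 24 h. The 2 h and 6 h arrays overlapped each other just above the controls, and the second 24 h array stood highest. Only the 24 h change of 0.51 ± 0.08 was called among these comparisons (limma, adjusted p = 3.47e-04), and with the slide as a block it was 0.46 and not called (limma, adjusted p = 0.0579).
Nop2, a methyltransferase of the large subunit RNA, rose by 0.36 ± 0.04 at 6 h (limma, adjusted p = 9.68e-04) and 0.48 ± 0.04 at 24 h (limma, adjusted p = 1.28e-05). Nop16, an assembly factor known as a Myc target, rose by 0.22 ± 0.05 and 0.38 ± 0.05 at those times. Noc2l, related to a yeast export factor of the large subunit, was called at 24 h with 0.36 ± 0.07. Rrp1b, related to a yeast processing factor, had 0.18 ± 0.09 at 24 h, or -0.17 with normexp background correction, and did not pass at any time.

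**Figure D3:**
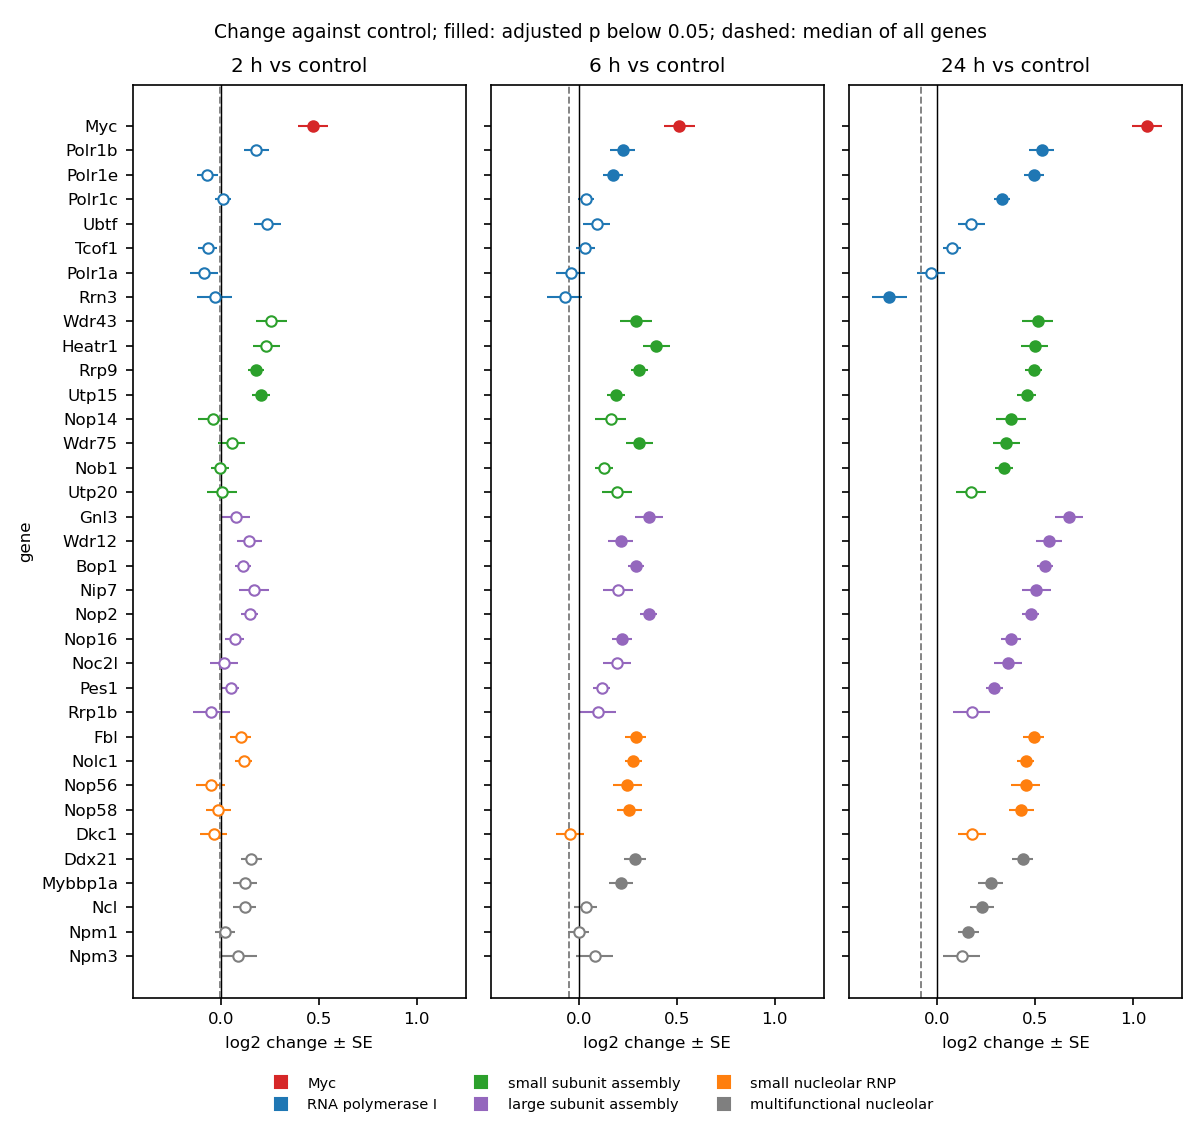
Log2 change from control with its standard error for each of the 35 genes at 2, 6 and 24 h, coloured by role; filled points have an adjusted p below 0.05 and the dashed line is the median change of all genes. Filled points number 3, 19 and 28, and Rrn3 is the sole filled point left of 0.

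Of the 5 snoRNP genes 0 were called at 2 h, and 4 rose at 6 h and the same 4 at 24 h, with medians of -0.01, 0.26 and 0.45. All 4 of those were also called higher from 2 h to 6 h. Of 25 alternatives that call held in 17 for Nop56, 13 for Nop58, 7 for Nolc1 and 6 for Fbl.
Fbl, the fibrillarin methyltransferase of box C/D snoRNPs, stood at 4.09, 4.03 and 4.03 in controls, 4.21, 4.07 and 4.18 at 2 h, 4.30, 4.34 and 4.39 at 6 h, and 4.50, 4.62 and 4.51 at 24 h. At 2 h 1 array lay within the controls' range, and the 6 h and 24 h groups lay clear of it and of each other. The changes were 0.10 ± 0.05 (limma, adjusted p = 0.266), 0.29 ± 0.05 (limma, adjusted p = 0.00552) and 0.49 ± 0.05 (limma, adjusted p = 4.17e-05).
Nop56 and Nop58, the core partners of fibrillarin in those particles, rose by 0.25 ± 0.07 and 0.26 ± 0.07 at 6 h and by 0.45 ± 0.07 and 0.43 ± 0.07 at 24 h. A further Nop56 probe gave 0.24 and 0.52. Nolc1, a phosphoprotein that chaperones snoRNPs, rose by 0.28 ± 0.04 and 0.45 ± 0.04, and its further probe by 0.16 and 0.45. From 2 h to 6 h that further probe did not rise. It read -0.07, -0.13 and -0.07 at 2 h and -0.13, -0.13 and -0.10 at 6 h.
Dkc1, the pseudouridine synthase of the H/ACA class, had changes of -0.04 ± 0.07, -0.05 ± 0.07 and 0.18 ± 0.07. It did not pass the test against control (limma, adjusted p = 0.0582 for the last). It was called higher from 6 h to 24 h (0.23, limma, adjusted p = 0.0399) and from 2 h to 24 h (0.22, limma, adjusted p = 0.0279). These calls held in 14 of 25 and 18 of 24 alternatives. Under spike-in scaling its 2 h and 6 h changes from control were 0.14 and 0.44.

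The multifunctional nucleolar genes moved least among the groups outside RNA polymerase I by their 24 h median: 0, 2 and 4 of 5 were higher, with medians of 0.12, 0.08 and 0.23.
Ddx21, an RNA helicase that acts in transcription and processing of ribosomal RNA, stood at 1.70, 1.81 and 1.70 in controls, 1.85, 1.89 and 1.93 at 2 h, 1.99, 2.02 and 2.05 at 6 h, and 2.16, 2.26 and 2.09 at 24 h. Its 4 groups did not overlap. The changes were 0.16 ± 0.06 (limma, adjusted p = 0.11), 0.29 ± 0.06 (limma, adjusted p = 0.00717) and 0.44 ± 0.06 (limma, adjusted p = 1.27e-04).
Mybbp1a, a nucleolar protein that binds transcription factors, rose by 0.22 ± 0.06 at 6 h and 0.27 ± 0.06 at 24 h, and its further probe gave 0.21 and 0.33. The abundant chaperones Ncl (nucleolin) and Npm1 (nucleophosmin) rose at 24 h only among these 3 comparisons, by 0.23 ± 0.06 and 0.16 ± 0.05. With the slide as a block these were 0.09 (limma, adjusted p = 0.606) and 0.05 (limma, adjusted p = 0.745) and not called, and under spike-in scaling the 6 h change of Npm1 was 0.49 in place of -0.0019. Npm3, a relative of nucleophosmin, had 0.13 ± 0.10 at 24 h, or -0.16 with normexp background correction, and did not pass at any time.

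Set against the promoters above, the 9 measured genes with CACGTG had a median change of 0.08, 0.22 and 0.29 at 2, 6 and 24 h, and the 23 without it 0.02, 0.19 and 0.38. At 24 h the range was 0.13 to 0.67 with the motif and -0.24 to 0.57 without it, so these ranges overlapped across most of their length. Gnl3 has the motif, while Wdr12, Polr1b and Polr1e, also among the largest changes at 24 h, have none in the window. Promoters of further small and large subunit assembly genes held it in 15 of 42 (35.7%) and 14 of 51 (27.5%), those of further RNA polymerase I genes in 3 of 13 (23.1%), those of further snoRNP genes in 1 of 12 (8.33%), and those of cytosolic ribosomal proteins in 5 of 63 (7.94%). The shares of the RNA polymerase I and snoRNP genes thus stood in the opposite order to that among the 37 genes.

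Other genes of the same pathways were read from lists of known members. Of 42 further small subunit assembly genes 13 rose and 0 fell at 6 h, and 33 rose and 0 fell at 24 h, with medians of 0.12 and 0.25. At 6 h Pno1 (0.45 ± 0.05), Bysl (0.35 ± 0.07) and Wdr46 (0.32 ± 0.06) moved most, and at 24 h Rcl1 (0.60 ± 0.04), Wdr46 (0.55 ± 0.06) and Noc4l (0.52 ± 0.06).
Of 55 further large subunit genes 17 rose and 1 fell at 6 h, and 36 rose and 3 fell at 24 h, with medians of 0.12 and 0.33. Rrp8, a methyltransferase of the large subunit RNA, rose by 0.47 ± 0.05 and 0.65 ± 0.05, Ppan by 0.35 ± 0.05 and 0.62 ± 0.05, and Brix1 by 0.33 ± 0.06 at 6 h, while Tex10 fell by 0.60 ± 0.17 at 24 h. Of 15 further snoRNP genes 2 rose at 6 h, the H/ACA genes Gar1 (0.44 ± 0.09) and Naf1 (0.38 ± 0.06), and 10 rose and 1 fell at 24 h, among them Gar1 (0.55 ± 0.09), Naf1 (0.44 ± 0.06) and Nhp2 (0.35 ± 0.05).
With the slide as a block the higher calls at 24 h were 9 of 42 small subunit, 15 of 55 large subunit and 0 of 15 snoRNP genes (limma; 4 of the 15 higher at an unadjusted p below 0.05), where 3.46% of all genes were called higher, and the medians were 0.19, 0.23 and 0.18. At 6 h they were 7, 11 and 2. Under spike-in scaling 39, 46 and 14 were called higher at 6 h and 38, 45 and 11 at 24 h. The median of all genes then was 0.44 at 6 h and 0.35 at 24 h. At 24 h the medians of the 3 lists were 0.68, 0.76 and 0.67.

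Of 14 further RNA polymerase I genes 2 rose at 6 h and 6 rose and 1 fell at 24 h, with medians of 0.10 and 0.16. Polr1g, the partner of Polr1e in the peripheral heterodimer, rose by 0.45 ± 0.04 at 6 h and 0.76 ± 0.04 at 24 h (limma, adjusted p = 5.67e-07), Taf1c, a subunit of the promoter selectivity factor, by 0.30 ± 0.06 and 0.50 ± 0.06, and Polr1f, a stalk subunit, by 0.47 ± 0.12 at 24 h. RNA polymerase III, which makes the smallest ribosomal RNA and transfer RNAs, had 0 of 21 genes called at 6 h (limma; 4 at an unadjusted p below 0.05), and 7 higher and 5 lower at 24 h, with a median of 0.07. These 12 are 57.1% of the list, near the 47.9% of all genes called. Under spike-in scaling 12 rose and 0 fell at 6 h and at 24 h, where the medians of all genes were 0.44 and 0.35. The list's median at 24 h was then 0.49. With the slide as a block 1 rose and 2 fell at 24 h. Gtf3c1 fell by 0.63 ± 0.11, Polr3a, its largest subunit, fell by 0.51 ± 0.11 and Polr3g rose by 0.37 ± 0.08. Of 12 genes of the RNA exosome, which trims precursors, 1 rose at 6 h (Exosc3, 0.22 ± 0.07) and 5 rose and 1 fell at 24 h (Exosc7, 0.47 ± 0.09, Exosc3, 0.28 ± 0.07, Exosc2, 0.27 ± 0.08). Called at 6 h and 24 h were 14.3% and 50% of the further RNA polymerase I genes. For the exosome the shares were 8.33% and 50%, beside 16.8% and 47.9% of all genes. Higher calls at 24 h were 42.9% and 41.7% of these lists, against 16.2% of all genes. Fitted with the slide as a block, 2 of the 14 RNA polymerase I genes (14.3%) were called at 24 h, beside 14.2% of all genes. Of the 12 exosome genes 0 were called in that fit, and limma had 0 at an unadjusted p below 0.05.

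The genes of the ribosomal proteins themselves had 0 higher calls against control on this scale. Of 78 measured 0 were called at 6 h (limma; 2 lower at an unadjusted p below 0.05), and 0 rose and 7 fell at 24 h (1 higher and 9 lower unadjusted), with medians of -0.02 and -0.06. Under spike-in scaling 54 rose and 0 fell at 6 h with a median of 0.47, where the median of all genes was 0.44. At 24 h, under array median scaling 20 rose and 0 fell at 24 h with a median of 0.13, and under spike-in scaling 7 rose and 0 fell with a median of 0.37. All genes then had 24 h medians of 0.11 and 0.35. The 3 lower calls of largest size at 24 h against control were Rpl41, Rpl23 and Rpl10, which fell by 0.24 ± 0.07, 0.22 ± 0.06 and 0.20 ± 0.06. From 2 h to 24 h 27 of the 78 were called, 1.28% of the list higher and 33.3% lower. Over all genes 18% were higher and 30.2% lower in that comparison.

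Among 12 measured genes of the Myc network, Max, the obligate partner of Myc, rose by 0.20 ± 0.05 at 6 h and Mxd4, a Max partner that represses, fell by 0.21 ± 0.05. At 24 h the kinase gene Pim1 rose by 0.48 ± 0.10, and Mxi1 and Mnt, which also compete for Max, fell by 0.36 ± 0.10 and 0.22 ± 0.05; in all 1 rose and 3 fell. The 2 calls at 6 h are 16.7% of the list and the 4 at 24 h 33.3%, beside 16.8% and 47.9% of all genes, so the network was called no more often than genes at large. At 24 h 6 rose and 0 fell under array median scaling, 4 and 0 under spike-in scaling, and 1 and 0 with the slide as a block. Of 29 Myc targets outside ribosome production 7 rose and 1 fell at 6 h, and 18 rose and 2 fell at 24 h, with medians of 0.09 and 0.18. The higher calls are 24.1% and 62.1% of the list, beside 5.06% and 16.2% of all genes. They ranged from 2 to 26 over 12 alternatives at 6 h and from 4 to 26 over 11 at 24 h, the 4 with the slide as a block, where 3.46% of all genes were higher. Tfrc, the transferrin receptor, rose by 0.29 ± 0.06 and 0.52 ± 0.06, Hk2, a hexokinase, by 0.28 ± 0.05 at 6 h, Mthfd2, an enzyme of mitochondrial folate metabolism, by 0.66 ± 0.07 at 24 h and Nme1, a nucleoside diphosphate kinase, by 0.45 ± 0.05 at 24 h, while Ccnd2, a cyclin, fell by 0.33 ± 0.08 at 6 h.

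**Figure D4:**
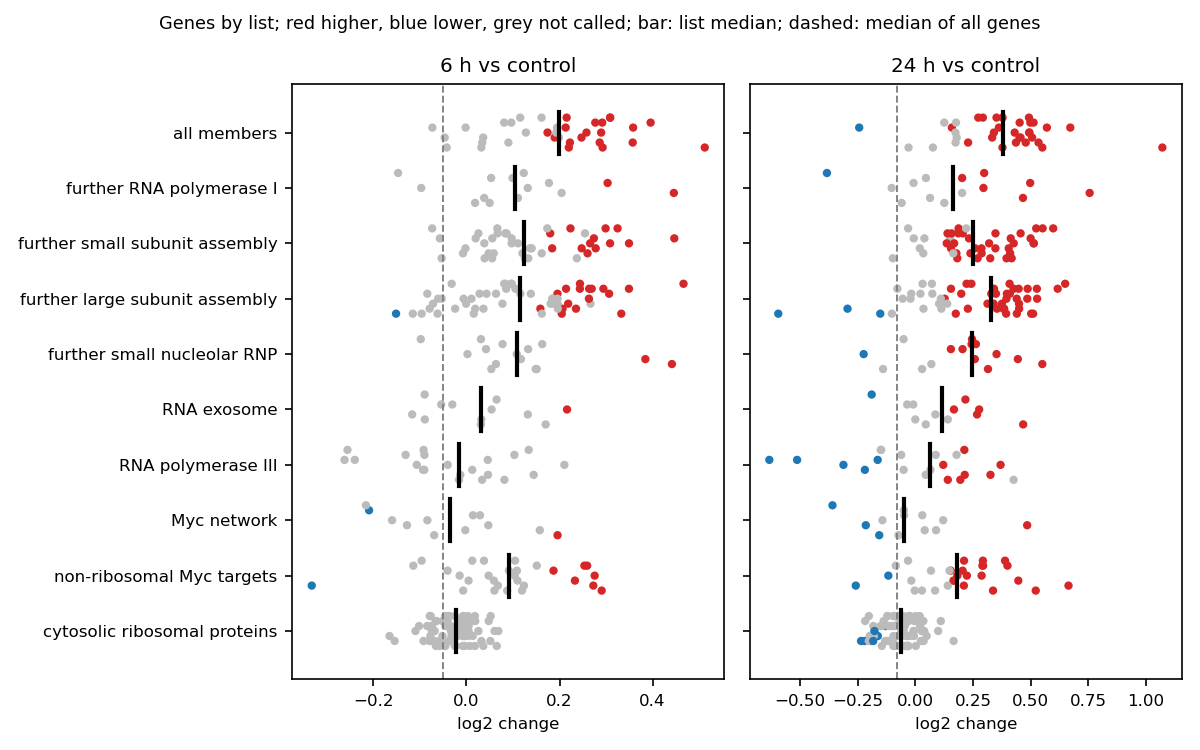
Log2 change from control of each gene (points) by list at 6 h and 24 h; red points were called higher, blue lower and grey not called, the bar is the list's median and the dashed line the median of all genes. The assembly lists lie to the right of that line at 24 h, with medians of 0.25 and 0.33, RNA polymerase III spreads to both sides, and the cytosolic ribosomal proteins cluster close to it at -0.06.

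Markers of other cell types moved at 24 h as well, where 47.9% of all genes were called, 16.2% higher and 31.7% lower. Of 9 measured macrophage and leukocyte markers 9 fell at 24 h, with a median change of -1.39, and their summed level went from 16.1 to 16.2 times the 75th percentile in controls to 5.68 to 6.59. Fibroblast markers fell in 8 of 10 (168 to 181 in controls, 121 to 141 at 24 h), endothelial markers in 6 of 10 with 1 higher (4.28 to 4.50, then 3.28 to 3.52) and cardiomyocyte markers in 8 of 10 with 1 higher (948 to 1018, then 790 to 861). Smooth muscle and pericyte markers rose in 3 of 10 and fell in 5 (68.0 to 69.7, then 68.2 to 70.4), and Schwann and neural markers rose in 1 of 5 and fell in 3 (0.437 to 0.484, then 0.478 to 0.540). The epicardial sum also went up, from 19.8 to 22.4 in controls to 25.1 to 26.1 at 6 h and 31.2 to 32.8 at 24 h. Its 8 markers did not move together, with 1 higher and 1 lower at 6 h and 4 higher and 2 lower at 24 h. Bright probes weigh most in such a sum. Krt18, a keratin of simple epithelia, changed most, by 0.70 ± 0.08 and 1.18 ± 0.08. Of 14 markers of proliferating cells 1 rose (Birc5) and 1 fell (Mcm2), 14.3% of the list and below the share of all genes. Their sums were 20.4 to 21.1 in controls and 21.1 to 21.4 at 24 h. Under spike-in scaling 8 of 9 macrophage markers fell, and 0 of 10 fibroblast, 0 of 10 endothelial and 0 of 10 cardiomyocyte markers did. That scaling had 6 of 14 proliferating cell markers higher and 0 lower. Epicardial markers then had 4 of 8 higher and 1 lower, and smooth muscle and pericyte markers 4 of 10 higher and 1 lower. In such bulk RNA, fewer cells of a type and less RNA per cell cannot be told apart, and the part of these markers in the 24 h changes above was not tested. At 6 h the macrophage sum was 14.7 to 16.4 and the cardiomyocyte sum 927 to 955, with 0 of 10 cardiomyocyte markers called (limma; 1 at an unadjusted p below 0.05).

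How far the genes moved depended on the scaling. Spike-in scaling adds 1 value to the change of every gene, 0.18 at 2 h, 0.49 at 6 h and 0.43 at 24 h. A change below 0 by less than that turned sign, in 10, 4 and 2 of the 35 genes. These values rest on 7 spike-in probes per array. The mean log2 signal of those probes was 10.67, 11.04 and 10.66 on the 3 control arrays and 10.37 to 10.73 on the stretched arrays. Control replicate 2 thus stood above every other array, and its part in the added values was not tested. Over all alternatives, those that leave out an array included, 15, 8 and 5 genes turned sign at least once at 2, 6 and 24 h, and Rrn3 at 24 h was the 1 called change among them. Scaled to the labelled spike-in controls, the median of all genes was 0.17, 0.44 and 0.35 at 2, 6 and 24 h and that of the 35 genes 0.25, 0.69 and 0.81. Out of 14376 genes tested, 5439 were then called at 24 h, 4864 of them higher, and 7220 at 6 h, 7173 of them higher. Counts of higher calls in a list under spike-in scaling are to be read beside these. The higher calls among all genes were 2324 of 6888 at 24 h and 728 of 2408 at 6 h with the 75th percentile. With array median scaling they were 5571 of 7766 at 24 h and 1885 of 2652 at 6 h. Over 13 alternatives at 2 h and 6 h and 12 at 24 h, not counting those that leave out an array, the median of the 35 genes lay above that of all genes by 0.04 to 0.12, 0.22 to 0.27 and 0.42 to 0.52. Array median and spike-in scaling, the fits on 2 groups and the replicate block cannot move this distance. It stayed at 0.08, 0.25 and 0.46 in them, as in the main fit, so they say nothing on how stable it is.
Slide and group were partly joined, because all 24 h arrays shared a slide with just 1 array of another group, at 6 h. That array's levels differed from the mean of the other 6 h arrays by a median of 0.05 over the 35 genes, from -0.10 to 0.23, and were higher in 26 of 35. With the slide as a block 4, 9 and 16 genes were called at 2, 6 and 24 h, where 2045 of 14376 genes were called at 24 h, and the median over the 35 was 0.08, 0.18 and 0.38. The 24 h calls that were then lost were Mybbp1a, Ncl, Nip7, Noc2l, Nop14, Nop16, Nop56, Nop58, Npm1, Rrn3, Wdr43 and Wdr75.
9 of the 19 calls at 6 h held in all 25 alternatives: Myc, Bop1, Ddx21, Fbl, Gnl3, Heatr1, Nolc1, Nop2 and Rrp9. At 24 h 16 of 28 held in all 24, these 9 and Nob1, Pes1, Polr1b, Polr1c, Polr1e, Utp15 and Wdr12. At 2 h 0 of 3 held in all 25; Myc held in 24, Utp15 in 16 and Rrp9 in 14.

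**Figure D5:**
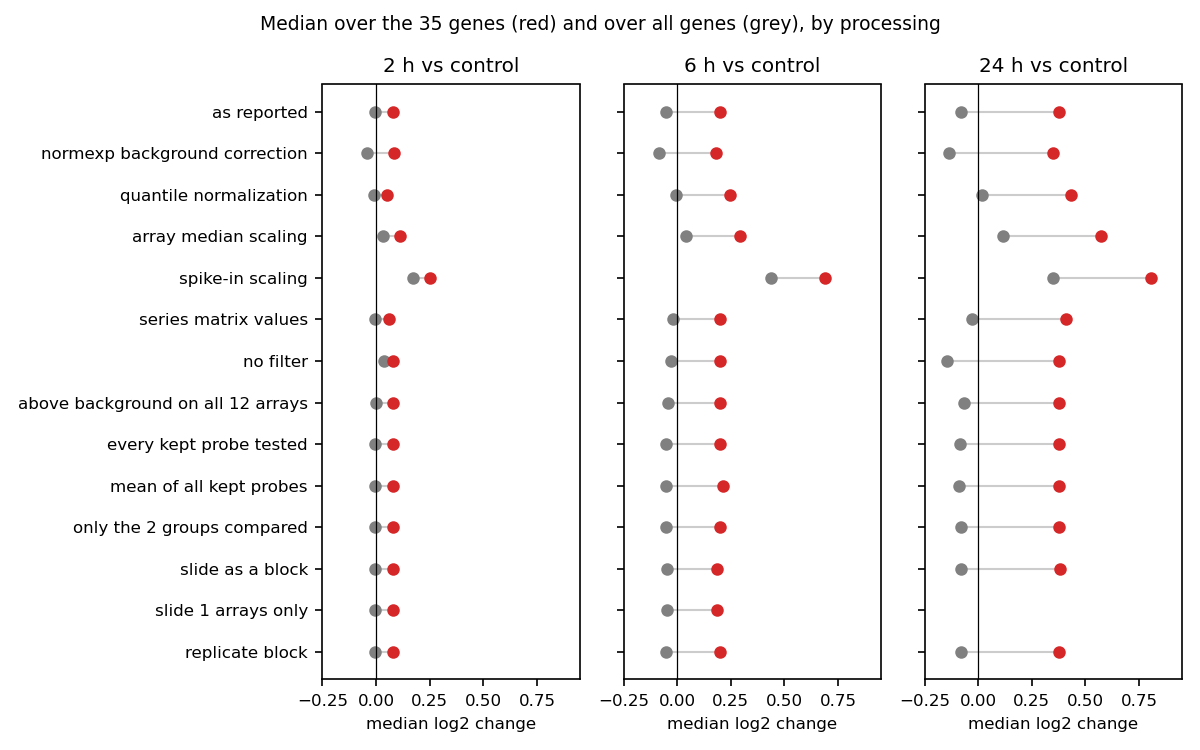
Median log2 change from control over the 35 genes (red) and over all genes (grey) at 2, 6 and 24 h under each processing choice; the grey line joins the pair. The spike-in row lies furthest right for both, at 0.69 and 0.44 for 6 h, and the gap between red and grey widens from 2 h to 24 h in every row that has all 3 times. In the rows of array median and spike-in scaling, 2 groups and the replicate block this gap is fixed to that of the row as reported.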

How the data were processed

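Total RNA of 12 samples was hybridised to 1-colour Agilent arrays, 1 sample per array. Agilent Feature Extraction read the scans, in version 11.0.1.1 per the file headers and 10.7.3.1 per the submitters' processing notes. The deposited processed signal is a linear intensity from which, per the file headers, background was removed; the deposited flags of each spot are other values, coded 0 or 1. The series matrix, also deposited, holds linear intensity values for which no source states a scaling between arrays; it served as an alternative, and its ranks followed each array's mean signal (rank correlation of at least 0.9988). All mapped columns were used.

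Spots the image software marked as outliers were left out (224 to 359 of 58717 per array), log2 values were averaged over spots of a probe, and the 75th percentile of an array was taken off its values. The filter kept probes that the software marked as above background on all arrays (3) of some group, 18997 of 30367, and a gene took its kept probe with the highest mean signal; of the 43 probes of the genes described, 42 were kept. Genes outside the set were named by accession, symbol or synonym through RefSeq tables. With limma 3.58.1 in R 4.3.3 (packages jsonlite 2.0.0 and data.table, version 1.17.8) a model with 4 group means was fitted, two-sided, on the 12 arrays together. The number of arrays limits the precision. Data were simulated for 6 h against control with 14376 genes, 200 of them changed. Of genes changed by 0.25 on the log2 scale 20% were recovered, of those changed by 0.5 66% and of those changed by 1 92%. The real comparison called 2408 genes at 6 h, many more than were changed in the simulation, so these rates may not hold for it.

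The genes, their role groups, the other lists and the markers were chosen with earlier results of these data known. Genes given array by array were Myc, the 10 others with the largest called change from control and the leading gene of each role group; further genes shown array by array (Polr1c, Rrn3, Ubtf and Polr1d) were chosen after their values were seen. Of each other list up to 3 called genes with the largest change at 6 h and at 24 h were named. Alternatives were normexp background correction (offset 50), quantile, array median and spike-in scaling, the series matrix, other filters and probe rules, fits on 2 groups, the slide as a block or slide by slide, the replicate block, and each array left out; the fit on slide 2 was added after seeing the data. Promoter windows are those of RefSeq for GRCr8.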

Additional observations from a re-analysis of the deposited data

How the results depend on the processing

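The counts of called genes in the set depended on the processing, and under spike-in scaling the sizes of the changes did too. At 2 h, with 3 called, the count was 5 under array median scaling, 0 under spike-in scaling, 1 without the filter on dim probes and 1 when only the 2 groups compared were fitted. At 6 h, with 19, it was 34 under spike-in scaling, where the median of all genes was 0.44. Also at 6 h it was 11 without the filter, 9 with the slide as a block and 10 on slide 1 alone. At 24 h, with 28, it was 16 with the slide as a block. For 6 h against 2 h, with 9, it was 4 under normexp, 1 under spike-in scaling, 0 without the filter, 0 on the 2 groups alone, 0 with the slide as a block and 0 on slide 1 alone. For 24 h against 6 h, with 18, it was 0 under spike-in scaling, 6 with the slide as a block and 0 on slide 2 alone, a fit on 4 arrays added after seeing the data; for 24 h against 2 h, with 26, it was 8 and for the F test, with 26, it was 14 with the slide as a block. The fits on 1 slide or 2 groups used fewer arrays and the fit without the filter tested more genes; for the others the cause was not tested. Leaving out each array in turn gave 1 to 4 at 2 h, 9 to 20 at 6 h, 26 to 30 at 24 h, 0 to 9 for 6 h against 2 h, 12 to 19 for 24 h against 6 h, 24 to 29 for 24 h against 2 h and 25 to 28 for the F test. Under spike-in scaling, which adds 1 value to every gene's change and so is no separate test of a gene, 10, 4 and 2 changes turned sign at 2, 6 and 24 h; those called with or without it were Dkc1 at 6 h (0.44), Npm1 at 6 h (0.49), Polr1a at 6 h (0.45) and Rrn3 at 24 h (0.18). Normexp turned 3, 4 and 3 changes, none of them called: Noc2l, Npm3 and Utp20 at 2 h, Npm1, Npm3, Rrp1b and Utp20 at 6 h, and Npm3, Rrp1b and Utp20 at 24 h. Same-numbered samples of different groups deviated together no more than others (correlations of -0.11 to 0.10 over 18 pairs, 1 of them over 0.1, against -0.14 to 0.17 over 36 pairs), and 3 of 12 arrays correlated best with their own number, so the numbers were not taken to pair the samples; with the replicate block the counts were 2, 15 and 26 at 2, 6 and 24 h and 4 for 6 h against 2 h. Every probe tested for these genes was well above background on all 12 arrays, yet with normexp the 6 h changes of Polr1b (0.14), Polr1e (0.06), Utp15 (0.12) and Wdr12 (0.18) were no longer called.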
